A study of Mus musculus with 7 samples.

Results

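The Hox cluster genes were taken as the protein-coding genes of the mouse whose symbol is Hoxa, Hoxb, Hoxc or Hoxd followed by a number in the GENCODE annotation of the genome build NCBIM37 (mm9). There were 39 such genes among 22253 protein-coding genes of chromosomes 1 to 19 and X. The rule uses the symbol alone, and the family was chosen with earlier results of these data known. The Hoxa cluster held 11 genes on chromosome 6, the Hoxb cluster 10 on chromosome 11, the Hoxc cluster 9 on chromosome 15 and the Hoxd cluster 9 on chromosome 2. A called region was assigned to a gene when its midpoint lay in the gene body or within 10 kb of it, and this stretch is called the gene window. Neighbouring windows overlap, so that 38 of the 49 H3K4me1-marked regions counted here lay in the windows of 2 or more Hox genes, and the genes are not independent measurements.

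The regions came from ChIP-seq of resting CD8-positive T cells (CD8-TC) of wild-type ICR mice. These are lymphocytes that kill infected cells, and they were taken from spleens by positive selection on anti-CD8 beads to a purity above 95%. The labels give 18 mice, pooled, for each library, and the paper describes 2 biological repeats that were sequenced separately. The 3 groups shared strain, cells and resting state and differed in the serum used: an in-house polyclonal antibody to the transcription factor Runx3 (3 libraries of 2 repeats), a monoclonal antibody to histone H3 monomethylated at lysine 4 (H3K4me1, 2 libraries), and non-immune rabbit serum as control (NIS, 2 libraries). Each antibody yielded 1 list of regions called on joined repeats, with 4934 Runx3-bound and 76705 H3K4me1-marked regions.

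The lists hold positions and names without heights, read numbers or values per repeat, so the depth behind a region is unknown, replicate error cannot be given and no difference below was tested. A stretch without a called region may hold binding or a mark below the calling threshold. Of all protein-coding genes 15.5% had a Runx3-bound and 69.9% an H3K4me1-marked region in their window, the shares beside which the marker counts stand. All 8 T cell marker genes (Cd3e, Cd3g, Cd247, Cd8a, Cd8b1, Tcf7, Lck and Cd5) had both Runx3-bound and H3K4me1-marked regions. Of 7 B cell markers, 3 had a Runx3-bound region, Cd79a and Pax5 among them, and all 7 had H3K4me1. Of 6 myeloid markers, Itgam had a Runx3-bound region and 5 had H3K4me1. Of 3 natural killer cell markers and 4 stromal and stem cell markers, none had a Runx3-bound region, and 1 and 3 had H3K4me1. The part of other cell types in the Hox values was not tested.

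Hox genes encode homeodomain transcription factors that give cells their position along the axis from head to tail. Within each cluster the genes stand in the order in which they are used along that axis, from the anterior genes with low numbers to the posterior genes with high numbers, and genes of the same number in different clusters are paralogues. Polycomb complexes keep the clusters silent, and trithorax proteins such as Mll1 keep them active. In blood, Hoxa and Hoxb genes such as Hoxa9 are known from stem and progenitor cells and from leukaemia. H3K4me1 is a mark of enhancers and of the flanks of active promoters, and Runx3 is needed for the function of CD8-TC.

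The sequences that show what the region lists hold at and near the clusters are given first. For each cluster the widest H3K4me1-marked region with a RUNX hexamer is represented by 140 bases around 1 hexamer, free of annotated UTR, and the pair of Runx3-bound regions closest to any Hox gene by the same length. All are written 5′ to 3′ on the plus strand of NCBIM37, and capitals mark RUNX hexamers. The hexamers searched were TGTGGT and TGTGGC as well as TGCGGT and TGCGGC, on both strands, so that some capitals show the reverse complement.
Hoxa3 intron, H3K4me1-marked, chr6:52162731-52162870: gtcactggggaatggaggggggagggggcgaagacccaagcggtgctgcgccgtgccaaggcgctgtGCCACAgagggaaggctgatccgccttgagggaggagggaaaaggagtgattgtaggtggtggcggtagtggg
Hoxb6 intron, H3K4me1-marked, chr11:96156173-96156312: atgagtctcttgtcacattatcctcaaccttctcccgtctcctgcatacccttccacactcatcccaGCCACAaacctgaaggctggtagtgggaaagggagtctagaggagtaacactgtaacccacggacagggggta
Hoxc9 intron, H3K4me1-marked, chr15:102808044-102808183: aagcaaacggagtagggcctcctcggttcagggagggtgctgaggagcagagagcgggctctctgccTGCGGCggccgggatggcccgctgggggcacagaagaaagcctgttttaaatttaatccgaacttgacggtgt
Downstream of Hoxd3, H3K4me1-marked, chr2:74587474-74587613: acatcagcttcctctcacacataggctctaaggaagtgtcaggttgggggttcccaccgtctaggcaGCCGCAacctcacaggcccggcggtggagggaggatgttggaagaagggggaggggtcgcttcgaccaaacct
Between Hoxb1 and Skap1, Runx3-bound, chr11:96303028-96303167: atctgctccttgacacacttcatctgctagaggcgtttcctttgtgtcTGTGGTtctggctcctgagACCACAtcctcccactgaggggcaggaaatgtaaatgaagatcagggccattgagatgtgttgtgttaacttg
In Gm11529 near Skap1, Runx3-bound, chr11:96316484-96316623: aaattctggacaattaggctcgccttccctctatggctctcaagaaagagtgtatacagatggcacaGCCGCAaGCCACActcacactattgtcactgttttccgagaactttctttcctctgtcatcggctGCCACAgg
The stretches from the clusters hold 1 hexamer each, and those from the Runx3-bound regions hold 2 and 3. Each stretch was placed around a hexamer, so these numbers do not compare the regions. Over their whole length the regions from the clusters held 9, 3, 7 and 3 hexamers in the order above, and the Runx3-bound regions 3 and 4.

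The first question was whether Runx3 was bound at the Hox clusters of CD8-TC. No Runx3-bound region had its midpoint in any of the 39 gene windows. Among all protein-coding genes, 15.5% had such a region. The Hox windows are short and overlap, covering 518.0 kb in 5 separate stretches, of which the Hoxa cluster took 125.5 kb, the Hoxb cluster 139.9 kb, the Hoxc cluster 135.7 kb and the Hoxd cluster 116.8 kb. The windows of all genes held 2.72 Runx3-bound regions per Mb, which is 1.41 regions in a length equal to that of the Hox windows. By this measure a stretch as long as the Hox windows held few Runx3-bound regions on average. Around start sites alone, 8.8% of all genes had a Runx3-bound midpoint within 10 kb of the TSS and 5.12% a region within 1 kb, and the Hox genes had 0 in each case.

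Runx3-bound regions were more frequent at genes with more H3K4me1, and the Hox genes were compared at equal numbers of H3K4me1-marked regions. Of all genes with any H3K4me1-marked region in the window 21.2% had a Runx3-bound region, and of the 34 such Hox genes 0 did. Of all genes with 6 to 10 marked regions 31.1% had a Runx3-bound region, and 7 Hox genes fell into this class. Of those with 3 to 5 marked regions 17.2% had one, with 12 Hox genes in the class. With 1 to 2 marked regions it was 7.75% of all genes, beside 15 Hox genes, and with none 2.32%, beside 5 Hox genes. The Hox genes with a Runx3-bound region numbered 0 in each class.

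The distance from a cluster to its nearest Runx3-bound region differed widely. It was 1141.9 kb for the Hoxa cluster, measured from Hoxa13 to a region at chr6:53352481-53352975. For the Hoxc cluster it was 462.6 kb from Hoxc13 (chr15:102288630-102289199), and for the Hoxd cluster 308.2 kb from Hoxd1 (chr2:74910930-74911887). The Hoxb cluster was closest, at 73.5 kb from Hoxb1, the anterior gene used in the hindbrain. Hoxb2 lay 86.1 kb and Hoxb3 95.1 kb from the same region, and these were the 3 Hox genes with a Runx3-bound region within 100 kb, beside 44.1% of all genes.

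The pair of Runx3-bound regions beyond Hoxb1 lay on the side of Skap1, which encodes an adaptor of T cell receptor signalling and is the next protein-coding gene past the cluster. The nearer one (chr11:96302538-96303640) was 1103 bp wide, intergenic and 22818 bp from the Skap1 transcription start site (TSS). It held 3 RUNX hexamers, all TGTGGT. The farther one (chr11:96316140-96316833) was 694 bp wide, lay in Gm11529 at 9421 bp from the Skap1 TSS and held 4 hexamers, 3 TGTGGC and 1 TGCGGC. Both overlapped an H3K4me1-marked region. The window of Skap1 held 23 H3K4me1-marked regions.

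**Figure D1:**
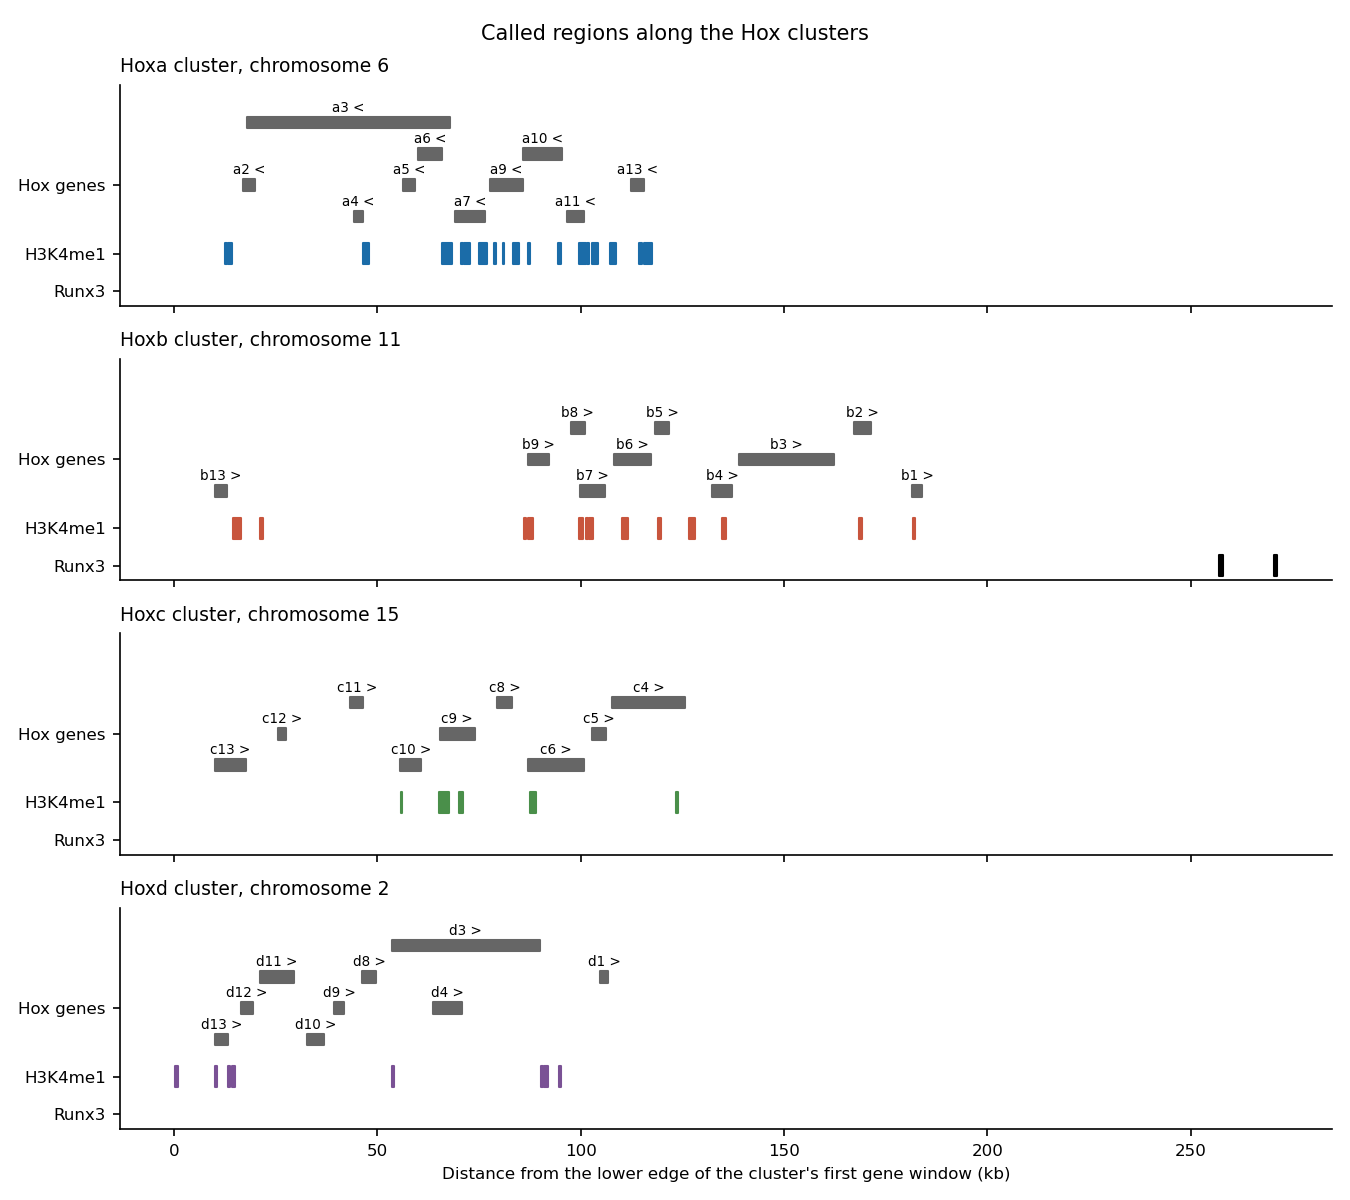
Map of the 4 Hox clusters to scale, with distance in kb from the lower edge of the first gene window. Grey bars are gene bodies (arrowheads give the strand, and 1 gene is not drawn), coloured bars the 49 H3K4me1-marked regions of the gene windows and black bars Runx3-bound regions; each bar has a thin outline that widens it slightly, and H3K4me1 outside the windows is not drawn. The only Runx3-bound regions in view are the pair 73.5 kb and more beyond Hoxb1.

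The second question was where H3K4me1 lay. An H3K4me1-marked region was present at 34 of the 39 Hox genes, beside 69.9% of all genes. The genes without one were Hoxc5, Hoxc12, Hoxc13, Hoxd9 and Hoxd10, of which Hoxc13 is known for its part in hair. Their nearest marked regions lay 13651, 30077, 45731, 14199 and 17800 bp from a TSS, in that order. The windows held 49 distinct regions, or 94.6 per Mb, which was 1.92 times the 49.3 per Mb of all gene windows. The Hox windows were also denser in genes, with 39 in 0.518 Mb beside 22253 in 1254 Mb, and the ratio takes no account of this. The share of bases marked differed less, with 8.43% in the Hox windows and 7.14% in all gene windows, and the mean width of a region was 891 bp at the Hox genes and 1426 bp over the whole list. With the midpoint within 10 kb of the TSS in place of the gene body, 32 Hox genes were marked, beside 64.7% of all genes. With regions at or above the median width of the list alone, the order turned, with 18 Hox genes (46.2%) beside 59.8% of all genes.

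The marked regions were unevenly spread over the clusters. The Hoxa cluster held 20, or 159.4 per Mb, which covered 16.3% of its windows. The Hoxb cluster followed with 15 regions, 107.2 per Mb and 8.89% of bases. The Hoxd cluster held 8 regions (68.5 per Mb, 4.47% of bases) and the Hoxc cluster 6 (44.2 per Mb, 4.08%). The Hoxa cluster thus took 40.8% of the regions. Its median gene had 5.0 regions, beside 3.0 in the Hoxb cluster and 1.0 in each of the Hoxc and Hoxd clusters.

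The densest marking of the Hoxa cluster was at Hoxa7, Hoxa9 and Hoxa10. Hoxa7, a gene of the trunk, had 8 regions that covered 32.7% of its window (body chr6:52164490-52171853). Hoxa9, which encodes a regulator of blood stem cells, had 9 regions over 30.1% (chr6:52173099-52181088). Hoxa10, with roles in the uterus and in blood progenitors, had the most regions, 10 over 28% (chr6:52181196-52190853). These genes are direct neighbours and share regions.

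Toward the posterior end of the Hoxa cluster the shares were somewhat lower. Hoxa11, a limb and uterus gene, had 7 regions over 26.3%. Hoxa13, which acts in digits and the genital tract, had 5 over 23.4%. On the other side of Hoxa7, Hoxa2, a gene of the hindbrain, had 2 regions over 5.88%. Hoxa4 had 1 over 5.7%, and Hoxa3, whose long body extends past Hoxa4, had 8 over 13.2%. Hoxa5 and Hoxa6 stood between, at 16.8% and 21.8%.

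In the Hoxb cluster the highest values were in the middle. Hoxb6, Hoxb8, Hoxb5, Hoxb7 and Hoxb9 had 18.4%, 17.2%, 16.1%, 15.3% and 13.5% of their windows marked. Hoxb13, a prostate gene that stands apart from the rest of the cluster, had 3 regions over 10.1%. Hoxb4, known for its effect on blood stem cell growth, had 2 regions over 9.48%. The anterior genes Hoxb1, Hoxb2 and Hoxb3 were at 3.08%, 2.39% and 3.31%, all under the 5.88% of the median protein-coding gene.

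In the Hoxc cluster the window shares were highest at Hoxc10 and Hoxc9, with 13.3% and 12.6%. Most marked bases of the Hoxc10 window lay in regions at Hoxc9, the wider of them 2381 bp. The region at Hoxc10 itself was 352 bp wide. Hoxc8, next to Hoxc9, had 9.67%, and Hoxc6, Hoxc11 and Hoxc4 had 4.22%, 1.51% and 1.37%. In the Hoxd cluster the posterior limb genes Hoxd13 and Hoxd12 were highest, with 11.2% and 8.75%. Hoxd3, Hoxd11, Hoxd8, Hoxd4 and Hoxd1 followed with 4.63%, 4.53%, 2.5%, 1.78% and 1.72%. No gene of these 2 clusters reached the median of the Hoxa genes, 21.8%.

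The median Hox gene had 2.0 regions over 8.75% of its window, beside 3.0 regions over 5.88% for all genes, whose windows were longer (median 35.5 kb and 24.1 kb for Hox genes). Of the 39 Hox genes 22 were above the median share of all genes. The T cell markers had a median of 43.9% and a lowest value of 29.2%, which only Hoxa7 and Hoxa9 among the Hox genes exceeded. High shares were not limited to T cell markers. The B cell markers had a median of 35.5% and ranged from 18.8% to 74.3%, beside a highest T cell marker of 60.3%.

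**Figure D2:**
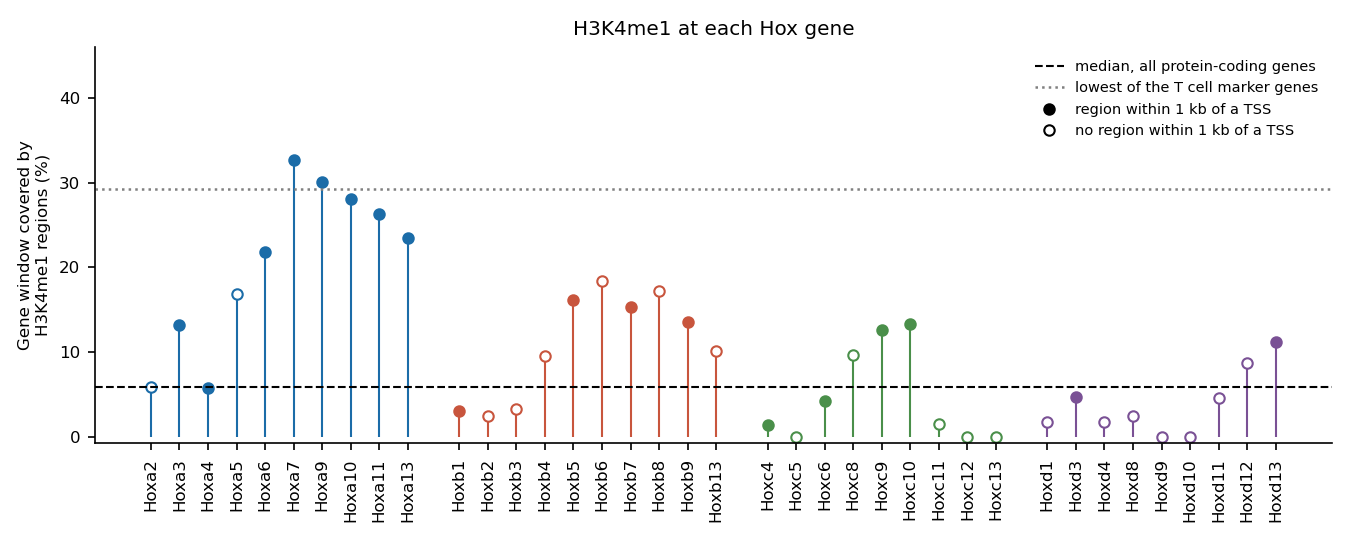
Percentage of each Hox gene's window (body and 10 kb on each side) covered by H3K4me1-marked regions, with 1 point per gene except 1 that is not drawn, ordered by number within each cluster and coloured by cluster. Filled points have a region within 1 kb of a TSS; the dashed line is the median of all protein-coding genes (5.88%) and the dotted line the lowest T cell marker (29.2%), which Hoxa7 and Hoxa9 exceed.

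Paralogues had different shares of their windows marked. Of the genes numbered 9, Hoxa9 had 30.1% of its window marked, Hoxb9 13.5%, Hoxc9 12.6% and Hoxd9 0%. The genes numbered 13 ran from 23.4% at Hoxa13 through 11.2% at Hoxd13 and 10.1% at Hoxb13 to 0% at Hoxc13. Those numbered 4 ran from 9.48% at Hoxb4 through 5.7% at Hoxa4 and 1.78% at Hoxd4 to 1.37% at Hoxc4. Of the genes numbered 10, Hoxa10 had 28%, Hoxc10 13.3% and Hoxd10 0%. Only among the genes numbered 4 did a Hoxb gene stand above its Hoxa paralogue.

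Grouped by number, the 8 anterior genes (numbers 1 to 3) had a median of 3.97% marked and a range of 1.72% to 13.2%. The 15 central genes (4 to 8) had a median of 9.67%, and the 16 posterior genes (9 to 13) a median of 10.6%. The central genes ranged from 0% to 32.7% and the posterior genes from 0% to 30.1%, so that the range of the anterior genes lay within that of each of the other classes. All 8 anterior genes, 14 central genes and 12 posterior genes had at least 1 marked region (100%, 93.3% and 75%, beside 69.9% of all genes).

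Single regions at the Hox genes were narrower than those of the list. Their median width was 689 bp, beside 979 bp for all H3K4me1-marked regions, and 14 of 49 (28.6%) were at or above that list median. Only 2 were wider than 2000 bp, beside 18.1% of the list, where the widest reached 51809 bp. The median was similar between clusters, at 706.5 bp for Hoxa, 694 bp for Hoxb, 709 bp for Hoxc and 643.5 bp for Hoxd.

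The widest Hox region (chr6:52161280-52163851, 2572 bp) lay over a TSS and intron of Hoxa3, over a TSS of Hoxa6 and over the non-coding gene 2700086A05Rik. The next, of 2381 bp, lay over a TSS and intron of Hoxc9 (chr15:102806830-102809210). A region of 1880 bp lay upstream of Hoxa13 (chr6:52211077-52212956), and 1 of 1712 bp covered a Hoxa11 TSS (chr6:52195093-52196804). The widest of the Hoxb cluster, 1524 bp, lay in an intron of Hoxb6 (chr11:96155806-96157329), and that of the Hoxd cluster, 972 bp, in a non-coding exon of 6720416L17Rik past the end of Hoxd3 (chr2:74587319-74588290).

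**Figure D3:**
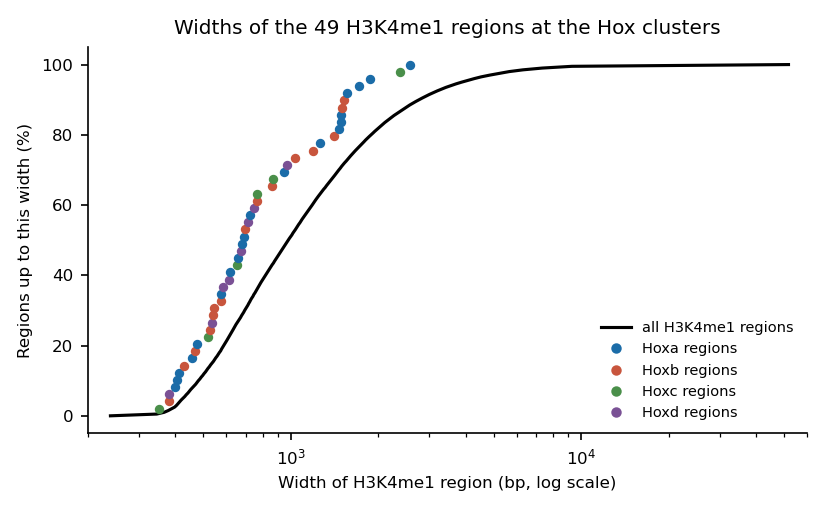
Cumulative distribution of region widths in bp on a log scale, with 1 point per H3K4me1-marked region at the Hox clusters, coloured by cluster, and a line for all 76705 regions. The points lie to the left of the line, with medians of 689 and 979 bp.

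By their midpoints, 15 of the 49 regions (30.6%) lay in coding exons, beside 3.49% of the regions in all gene windows. Hox windows are also richer in coding exons, which made up 7.33% of their bases and 2.85% of all gene windows. A further 11 midpoints lay in introns, 10 between genes, 7 in non-coding exons and 6 in UTRs. Of the coding-exon midpoints 14 were in Hox genes and 1 was in Evx2, the homeobox gene beside Hoxd13. The first coding exon was hit in 9 Hox genes, among them Hoxb1, Hoxb5, Hoxb7, Hoxb9, Hoxc4, Hoxc9, Hoxc10 and Hoxd13. The last coding exon, where Hox genes carry the homeobox, was hit in Hoxa9, Hoxa10, Hoxb2 and Hoxb8. In Hoxa13 the hit was in an inner block, but the annotation splits its coding sequence into 8 blocks, so its exon is uncertain.

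Marking at the start sites was counted separately. An H3K4me1-marked region came within 1 kb of a TSS at 19 Hox genes (48.7%), beside 58.5% of all genes. A region lay over a TSS at 11 Hox genes (28.2%), beside 27.9%. By cluster, regions within 1 kb were found at 9 of 11 Hoxa genes, 4 of 10 Hoxb genes, 4 of 9 Hoxc genes and 2 of 9 Hoxd genes. Those over a TSS included regions at Hoxa3, Hoxa6, Hoxa7, Hoxa9, Hoxa11, Hoxb1, Hoxb7, Hoxb9, Hoxc9 and Hoxd3. At Hoxd13 a region began 9 bp from the TSS, and at Hoxc10 38 bp from it.

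The profile around the TSS differed from that of all genes, though both had a dip near it. All genes stood at 16.9% at the TSS and 16.2% at 100 bp downstream, with a maximum of 38.6% at 800 bp downstream. The Hox genes fell from 16.5% at 400 bp upstream to 10.5% at 200 bp upstream. They stood at 17.4% at the TSS and reached a maximum of 25.9% at 500 bp downstream. From 2000 to 500 bp upstream the mean was 10.8% for Hox genes and 23% for all genes. From 500 to 2000 bp downstream it was 16.1% and 32.1%. Farther out it was nearly equal upstream (5000 to 2000 bp), 8.9% and 9.18%, but not downstream (2000 to 5000 bp), 8.35% and 14%.

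**Figure D4:**
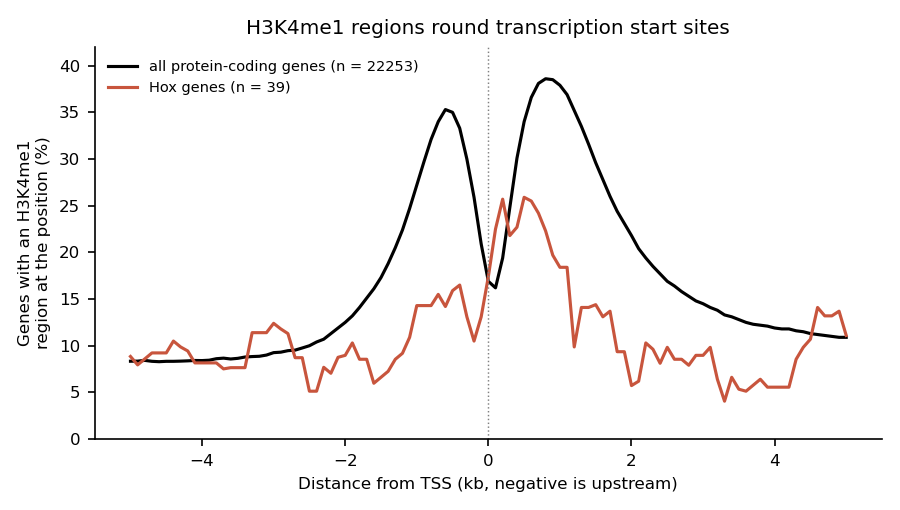
Percentage of genes with an H3K4me1-marked region at each position from 5 kb upstream to 5 kb downstream of the TSS, in steps of 100 bp, with each gene averaged over its start sites. The Hox line (39 genes) and the line of all 22253 genes cross near the TSS and again farther out, and their maxima are 25.9% and 38.6%.

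The clusters also hold miRNA genes, some of which are known to target Hox transcripts. Only Mir196b, within the annotated body of Hoxa9 (chr6:52180080-52180164), lay within an H3K4me1-marked region, which spanned chr6:52178850-52180338. The nearest marked region was 1828 bp from Mir10a, 2949 bp from Mir196a-2 and 5159 bp from Mir196a-1. Mir10b and Mir615 were farther, at 13608 and 14746 bp. The mature sequences, from the RefSeq annotation of GRCm38.p6, are given to show which of them share a seed (bases 2 to 8, in capitals), and so a set of possible targets.
mmu-miR-196b-5p: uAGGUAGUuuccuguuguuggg
mmu-miR-196a-5p: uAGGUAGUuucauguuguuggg
mmu-miR-10a-5p: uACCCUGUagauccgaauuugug
mmu-miR-10b-5p: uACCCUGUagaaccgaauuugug
mmu-miR-615-5p: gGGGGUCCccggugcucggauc
The seed AGGUAGU is thus shared by a miRNA gene inside a marked region and 2 genes outside, and neither gene of the seed ACCCUGU lay inside one.

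The sequence of the marked Hox regions was compared with the RUNX hexamers above, searched on both strands and counted one by one. At least 1 hexamer was found in 39 of the 49 regions (79.6%), beside 81.5% of all H3K4me1-marked regions and 88.8% of all Runx3-bound regions. Per kb the Hox regions held 2.13 hexamers, all H3K4me1-marked regions 1.94 and the Runx3-bound regions 2.96. In the central 200 bp a hexamer was found in 32.7% of Hox regions, 32.4% of all H3K4me1-marked regions and 66% of Runx3-bound regions. The Hox windows as a whole held 796 hexamers, or 1.54 per kb, beside 1.61 per kb of all gene windows. The Hoxa3 region of 2572 bp held the most, 9. A match is a description of letters and not a site of binding.

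The marked Hox regions were GC-rich, with a median of 56% and a range from 38.4% to 69.8%, beside 46.3% for all marked regions. Their median ratio of observed to expected CpG was 0.65, beside 0.23. The Hox windows themselves had 49% GC and all gene windows 43.1%. In RefSeq promoters of GRCm38, with a median length of 300 bases across the start, which matched 22 Hox symbols with 24 promoters, 5 held a hexamer (20.8%), beside 45.2% of 32851 promoters in all.

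The regulators and partners of Hox genes were described by the same counts, to be read against all genes, of which 15.5% had a Runx3-bound region and 58.5% H3K4me1 within 1 kb of a TSS. TALE proteins, the homeodomain cofactors that bind DNA together with Hox proteins, had no Runx3-bound region at any of 9 genes, and all 9 had H3K4me1 within 1 kb of a TSS. Meis1, the partner of Hoxa9 in leukaemia, had 11 marked regions over 5.23% of its window, and Pbx2 8 over 36.3%. Polycomb repressive complex 2, which methylates histone H3 at lysine 27, had a Runx3-bound region at 1 of 11 genes (9.09%), Jarid2, a recruiting subunit with 42 marked regions. Its catalytic genes Ezh1 and Ezh2 had 8 and 6 marked regions.

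Of 12 genes of Polycomb repressive complex 1, which ubiquitinates histone H2A, 4 (33.3%, beside 15.5% of all genes) had Runx3-bound regions, namely Cbx7, Phc1, Phc3 and Pcgf2, the last with 2. Bmi1, a subunit known for repressing Hox genes, had none and 8 marked regions over 35% of its window. Of 9 trithorax genes and other activators of Hox genes, Wdr5, Rbbp5 and Dot1l (33.3%) had Runx3-bound regions, the first pair within 1 kb of a TSS. Mll1, the methyltransferase that maintains Hox expression, had none and 8 marked regions over 18.5%. All genes of the Polycomb and trithorax lists had H3K4me1 within 1 kb of a TSS, beside 58.5% of all genes.

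Other developmental homeobox genes were set beside the Hox genes as a family with similar roles in the embryo. Of 36 such genes 20 (55.6%) had an H3K4me1-marked region, 12 (33.3%) within 1 kb of a TSS, and the median share of the window was 1.91%, beside 87.2%, 48.7% and 8.75% for Hox genes and 69.9%, 58.5% and 5.88% for all genes. Only Dlx1, a gene of forebrain interneurons, had a Runx3-bound region (2.78% of the list, beside 15.5% of all genes), together with 8 marked regions over 38.7% of its window. Of 6 Cdx and ParaHox genes, the relatives and regulators of the Hox clusters, 3 had H3K4me1 and 0 Runx3, beside 69.9% and 15.5% of all genes.

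**Figure D5:**
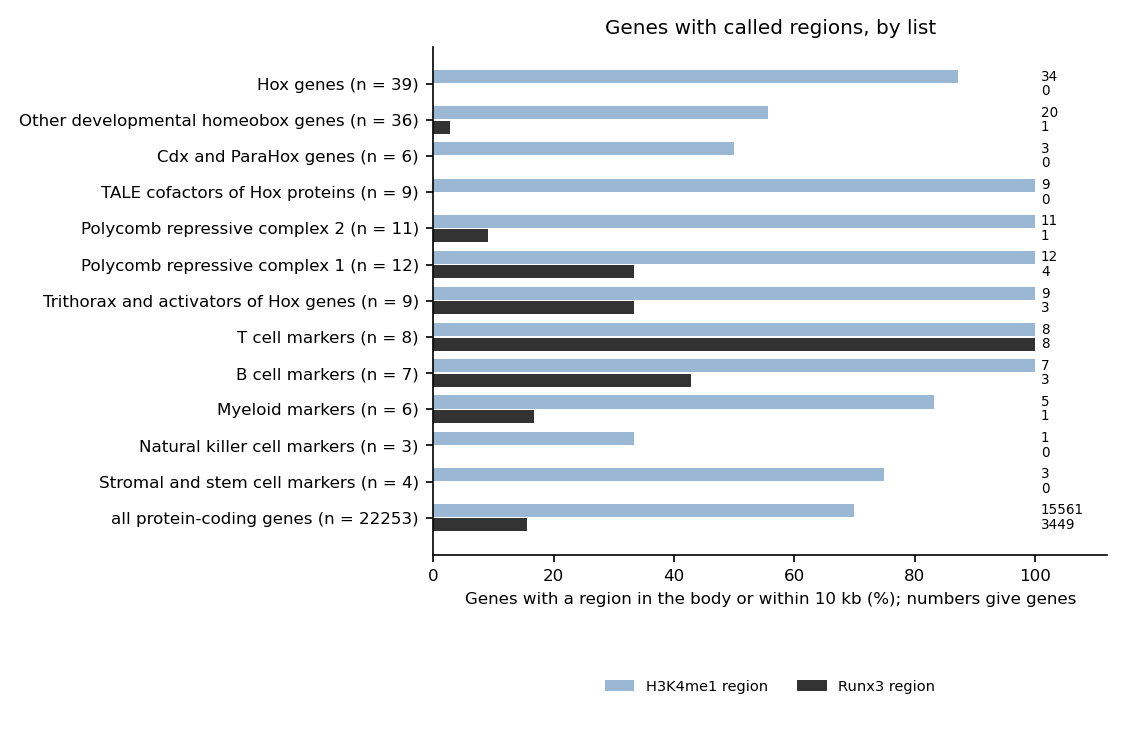
Percentage of genes in each list with an H3K4me1-marked region (blue) or a Runx3-bound region (black) in the body or within 10 kb, with the number of genes at the right. Hox genes have 34 and 0 of 39, and T cell markers have 8 and 8 of 8.

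The protein-coding genes that flank or interrupt the clusters were described last. Evx2, 8.4 kb from the Hoxd cluster, had 4 marked regions over 10.9% of its window, and Evx1, 52.6 kb from the Hoxa cluster, 1 over 4.49%. Mtx2 and Smug1, on the other sides of the Hoxd and Hoxc clusters, had 3 and 4 marked regions. Skap2 at the anterior side of the Hoxa cluster had 8 over 3.77%, and Ttll6, 28.9 kb from Hoxb13, had none. Gm17649, 0.3 kb from the Hoxc cluster, had none either. Of the genes within the clusters, Gm53 had 2 marked regions over 5.1% of its window, and 5730596B20Rik and Gm14396 had none. Skap1 was the only one of these neighbours with a Runx3-bound region in its window, which held 1, beside 15.5% of all genes with such a region.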

How the data were processed

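Chromatin was cross-linked in 1% formaldehyde, sheared to about 300 bp and precipitated. The authors ran the Illumina pipeline (CASAVA 1.6 and 1.7 per the submitters' processing notes), aligned reads to mm9 with ELAND, kept unique reads, joined both repeats, scaled the larger data set to the smaller and called regions with MACS against NIS. Unique alignment leaves out reads that fit several places. The deposited lists give chromosome, start, end and name, and starts were moved by 1 bp to browser positions.

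Gene records of 1 symbol that overlap were joined, so that 40 Hox records gave 39 genes. Regions were counted by midpoint within 10 kb of the body, by overlap of at least 1 bp within 1 kb of any annotated TSS, and by the share of window bases covered. Named were Hox genes with Runx3-bound regions, with H3K4me1 within 1 kb of a TSS or with neither, the neighbours of each cluster and list members with Runx3-bound regions, and further Hox genes and list members were named after their values were seen. Alternatives were other margins, windows around the TSS, merged regions and wide regions alone. Members and gene lists were chosen with earlier results of these data known. Scripts used Python 3.11.15 and numpy 2.4.6 and were tested on simulated regions. A few genes that are in the counts are not reported here singly.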

Additional observations from a re-analysis of the deposited data

How the results depend on the processing

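With margins of 5 and 20 kb, windows of 10 kb around the TSS, or overlap in place of midpoints, the Hox genes with a Runx3-bound region remained 0 in number and those with H3K4me1 ranged from 29 (74.4%, beside 67.1% of all genes) at 5 kb to 37 (94.9%, beside 73.6%) at 20 kb. With a margin of 100 kb, chosen after seeing the data, 3 Hox genes and 2 Runx3-bound regions were counted, beside 44.1% of all genes with such a region. With H3K4me1-marked regions at or above the median width alone, the regions fell from 49 to 14, the marked Hox genes from 34 to 18 (46.2%, beside 59.8% of all genes) and those marked within 1 kb of a TSS from 19 to 9 (23.1%, beside 46%). Merging neighbours within 1000 bp left 33 regions. By the share of genes marked within 1 kb of a TSS, a different quantity from the window share, the anterior, central and posterior genes stood at 50%, 46.7% and 50%, which does not give the order of the window shares (3.97%, 9.67% and 10.6%). Of 34 alternatives 26 left a count within 1.5 times its value, but 15 of these were Runx3 counts that stayed at 0, including those of Runx3-bound regions with H3K4me1, which could not move without a Runx3-bound region. No paired analysis was possible because the calls rest on pooled reads of the repeats, which also kept either repeat from being left out. Without read numbers, regions under the calling threshold cannot be counted.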
